A study of Acipenser dabryanus with 12 samples.

Results

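In the brain of juvenile Yangtze sturgeon (Acipenser dabryanus), 75 assembled genes were abundant in every brain library and close to 0 in every liver and spleen library. They were chosen by their measured values, out of 280408 genes of a de novo assembly. A gene was included at 50 TPM or more in each of the 4 brain libraries and at 1 TPM or less in each of the 8 liver and spleen libraries. TPM is a transcript's abundance, scaled for its length and to a fixed total in each library. Of the 1151 genes that met the brain minimum, the 75 restricted genes were 6.52%. The other 1076 are called unrestricted brain genes here and serve as the comparison, since the same floor of 50 TPM holds for them.

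The fish were 6 months old and had been fed a diet with either soybean oil or fish oil for 7 weeks, each diet in 1 pond. They were caught either 1 h before feeding or 1 h after it. For each tissue, 1 library stood for each diet and feeding state, so there were 12 libraries, 4 from each tissue, and no strain or further treatment was named. Diet and pond cannot be told apart, and neither can feeding state and the hour of sampling. The sources state 6 fish caught per pond and time, 3 RNA samples per group and 45 libraries, while 12 libraries are in this series. Whether a library stands for 1 fish or for several is not given in the sources used here. With 1 library per combination, an SD over the 4 brain libraries includes any difference between diets and feeding states. The p-values rest on how far the pairs of a comparison differ, combined with a variance estimated over all tested genes. They do not measure a spread between replicate libraries, since there were none.

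Brain tissue consists of neurons and glia. In vertebrates, genes of synaptic transmission, of ion channels, of neuropeptides and of myelin are known for being expressed mainly in nervous tissue. Liver produces plasma proteins and bile, and spleen filters blood and holds immune cells. The assembly IDs come with no gene names, so none of the 75 genes can be given a role here, and the tissue labels could not be checked against named markers. In bulk tissue, fewer cells of a type and less RNA per cell cannot be told apart.

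The restricted genes covered a wide range of levels in brain. Their mean over the 4 brain libraries ran from 60.5 to 2230 TPM, with a median of 120.6 TPM and quartiles of 91.8 and 221 TPM. The level reached 1000 TPM in 2 genes, lay between 500 and 1000 TPM in 3, between 200 and 500 TPM in 15, between 100 and 200 TPM in 30 and under 100 TPM in 25. So 55 of the 75 genes lay under 200 TPM. The 10 highest of them held 45% to 48.3% of the summed TPM of the list in each brain library.

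TRINITY_DN131745_c1_g2 was the highest. It stood at 1775 TPM before and 2319 TPM after the meal with soybean oil, and at 2248 and 2578 TPM with fish oil, a mean of 2230 ± 335 TPM (SD, n = 4). Its highest value in the other tissues was 0.95 TPM, in the spleen of the fish oil diet before the meal. The second, TRINITY_DN135951_c5_g1, stood at 724 TPM before and 1687 TPM after the meal with soybean oil, and at 1446 and 2038 TPM with fish oil. For both genes the soybean oil brain before the meal was the lowest library and the fish oil brain after the meal the highest. The first varied by 15% (coefficient of variation, SD over mean, n = 4) and the second by 37.7%.

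**Figure D1:**
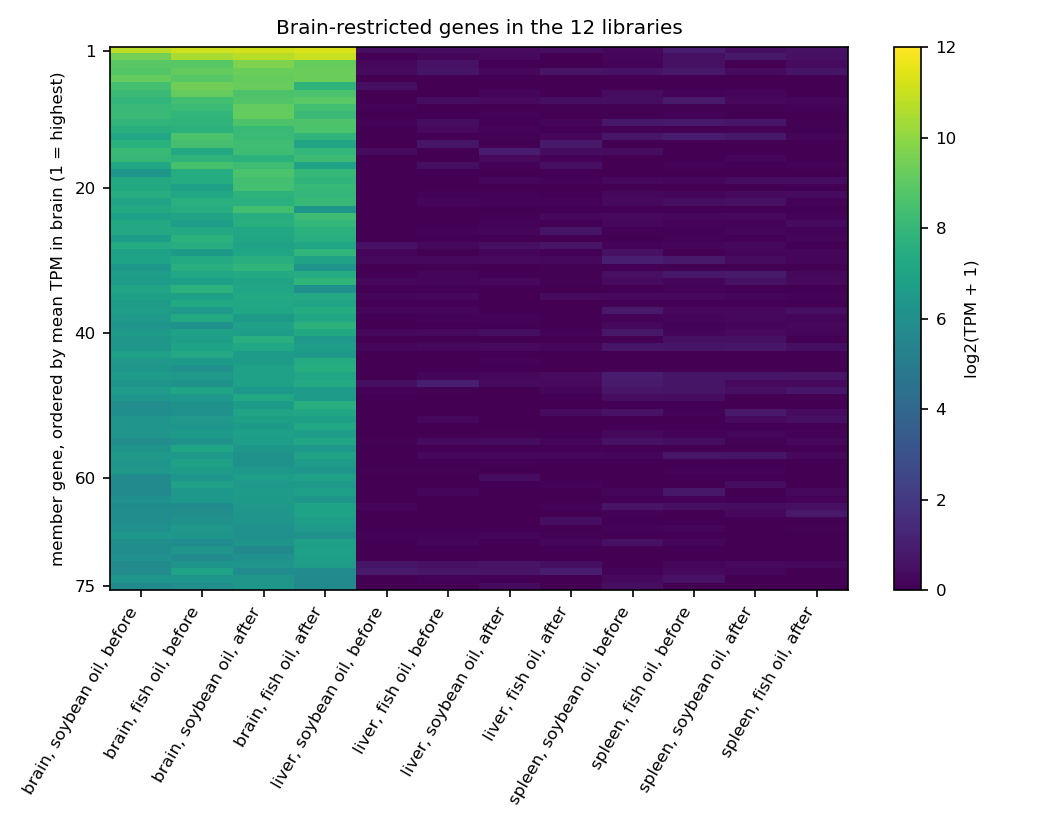
Level of each of the 75 brain-restricted genes (rows, ordered by mean TPM in brain) in the 12 libraries (columns, named by tissue, diet and sampling before or after the meal). Colour gives log2(TPM + 1): the 4 brain columns are bright by the choice of genes, and the 8 liver and spleen columns stay at or under 1 TPM.

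In liver and spleen the remaining signal was small, as the choice of genes fixes. The 75 genes together summed to 5.79 to 9 TPM in the 4 liver libraries and to 9.94 to 15.8 TPM in the 4 spleen libraries. The median gene had a mean of 0.06 TPM in liver and 0.135 TPM in spleen. In all 8 libraries 10 genes were listed at 0, and in 20 genes the highest value of the 8 was 0.1 TPM or less. In 26 genes it was above 0.5 TPM. Without counts, a value listed at 0 cannot be told from one below detection.

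The limits of the rule cut through a continuous range. Just inside the brain minimum were TRINITY_DN123124_c0_g3, with a lowest brain value of 50.2 TPM, and TRINITY_DN117051_c4_g1, with 50.5 TPM. Just outside it were TRINITY_DN125230_c0_g1, with 49.4 TPM, and TRINITY_DN115757_c5_g1, with 49.2 TPM. On the side of liver and spleen, TRINITY_DN120346_c5_g2 with a highest value of 1.03 TPM and TRINITY_DN114356_c0_g1 with 1.04 TPM missed the limit of 1 TPM. Of the genes that met the brain minimum, 121 met the limit in liver and 91 in spleen. Spleen alone kept out 46 genes and liver alone 16.

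As a share of all brain TPM, the restricted genes were lowest in the soybean oil brain before the meal. They made up 1.21% of TPM in that library and 1.56% in the fish oil brain before the meal. After the meal they made up 1.83% with soybean oil and 1.80% with fish oil. The mean was 1.60% ± 0.288 (SD, n = 4). Both libraries after the meal lay above both libraries before it, by a ratio of 1.51 with soybean oil and 1.16 with fish oil. The diets overlapped, with a ratio of soybean oil over fish oil of 0.775 before the meal and 1.01 after it.

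The soybean oil brain before the meal held the lowest of the 4 values in 39 of the 75 genes, or 52%, against 47.6% of all tested genes and 22.3% of the unrestricted brain genes. It held the highest value in 1 gene, or 1.33%, against 11.4% of all tested genes and 39.2% of the unrestricted brain genes. The fish oil brain after the meal held the highest value in 38 genes, or 50.7%, against 32.7% of all tested genes and of the unrestricted brain genes alike. On the log2(TPM + 1) scale, the median restricted gene deviated from its own brain mean by -0.32 with soybean oil and -0.057 with fish oil before the meal. After the meal it deviated by 0.15 with soybean oil and 0.24 with fish oil. The median unrestricted brain gene deviated in the same 4 libraries by 0.084, -0.17, -0.022 and 0.064. All tested genes had medians of -0.27, 0.12, 0.050 and 0.089. In the soybean oil brain before the meal the restricted genes thus lay below their means, as did all tested genes, while the unrestricted brain genes lay above theirs.

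**Figure D2:**
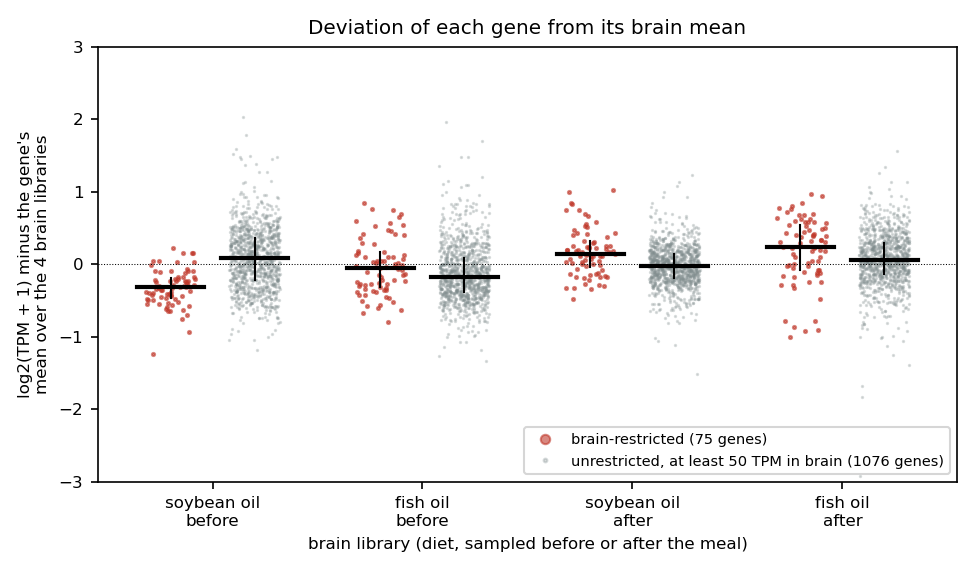
Deviation of each gene from its own mean over the 4 brain libraries, in log2(TPM + 1), for the 75 restricted genes (red) and the 1076 unrestricted brain genes (grey) in each brain library. Thick bars are medians and thin bars quartiles: the restricted genes have a median of -0.32 in the soybean oil brain before the meal, where the unrestricted genes have 0.084.

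The brain libraries also differed in measures outside this list. The 10 highest genes of each library, none of them a restricted gene, took 13.8% of TPM before and 11.7% after the meal with soybean oil, and 12.8% and 9.26% with fish oil. Genes of at least 1 TPM numbered 52435 before and 66426 after the meal with soybean oil, and 78832 and 66103 with fish oil. The 122 genes of at least 50 TPM in every liver and at most 1 TPM in every spleen library summed to 507 and 499 TPM in the soybean oil brains before and after the meal. In the fish oil brains they summed to 756 and 784 TPM. The 3 genes chosen likewise for spleen over liver summed to 50.3 TPM before and 35.2 TPM after the meal with soybean oil, and to 45.7 and 21 TPM with fish oil. The part of these differences in the results on the restricted genes was not tested, except that leaving out the highest genes is reported as an alternative scaling.

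The restricted genes varied somewhat more over the 4 brain libraries than unrestricted genes under the same floor. Their median coefficient of variation was 29.9%, with quartiles of 22% and 40.4% and a range from 9.91% to 59.1%. Among the unrestricted brain genes the median was 24.3%, with quartiles of 17.5% and 33.3%. It was under 20% in 14 restricted genes and over 40% in 20. The highest brain value was a median of 1.98 times the lowest for restricted genes and 1.73 times for unrestricted ones. In 36 of the 75 genes it was at least 2 times the lowest, in 6 at least 3 times and in 13 under 1.5 times. A floor in every library keeps out genes that fell under it in 1 library, so these values understate the spread of genes near 50 TPM.

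The steadiest restricted gene was TRINITY_DN126629_c3_g7. It stood at 89.7 TPM before and 84.4 TPM after the meal with soybean oil, and at 99.7 and 79.3 TPM with fish oil, a coefficient of variation of 9.91%. TRINITY_DN128514_c2_g1 followed with 10.8%, between 66.3 and 83.9 TPM. Both were, unlike most of the list, lower after the meal in both diets.

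The most variable was TRINITY_DN106883_c0_g1, listed at 0 in all liver and spleen libraries. It stood at 81.2 TPM before and 393 TPM after the meal with soybean oil, and at 170.2 and 253 TPM with fish oil, a coefficient of variation of 59.1%. The libraries after the meal did not overlap those before it. TRINITY_DN134310_c2_g5, also listed at 0 outside brain, stood at 155 TPM before and 331 TPM after the meal with soybean oil, and at 177 and 81.6 TPM with fish oil. Its coefficient of variation was 56.3%, and its highest and lowest libraries were the soybean oil and the fish oil brain after the meal.

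**Figure D3:**
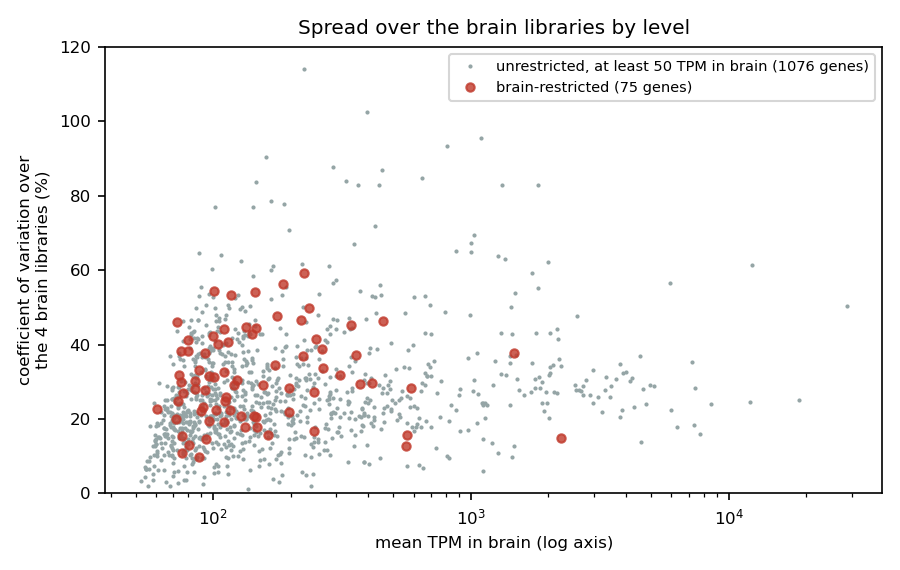
Coefficient of variation over the 4 brain libraries (percent) against mean TPM in brain (log axis), for the 75 restricted genes (red) and the 1076 unrestricted brain genes (grey). The restricted genes lie between 9.91% and 59.1%, within the range of the unrestricted genes.

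The first comparison within brain was between the diets. It asks whether the fat source goes with a difference in these genes, which are restricted to brain against liver and spleen only. More of the restricted genes were lower than higher with soybean oil, as among all tested genes, and the differences were small. In both feeding states 31 of the 75 genes, or 41.3%, were lower with soybean oil, against 32.2% of all tested genes and 18.6% of the unrestricted brain genes. In both states 5 were higher, or 6.67%, against 11.3% of all tested genes and 19.8% of the unrestricted brain genes. The other 39 genes changed sign between the feeding states. Both soybean oil libraries lay below both fish oil libraries in 12 genes, or 16%. That was less than the 19.3% of all tested genes and more than the 7.16% of the unrestricted brain genes. They lay above both in 2 genes, or 2.67%, against 6.04% of all tested genes. At 1.5-fold or more in each feeding state, 1 of the 75 genes was lower, against 6.91% of all tested genes. None was higher, against 2.2% of all tested genes.

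The median log2 fold of soybean oil over fish oil was -0.22 before the meal and -0.15 after it for the restricted genes, on log2(TPM + 1). For the unrestricted brain genes it was 0.20 before the meal and -0.11 after it, and for all 61309 genes tested -0.34 and -0.025. As the mean of both feeding states the restricted genes had a median of -0.20, between quartiles of -0.39 and 0.045 and a range of -0.78 to 0.91. All tested genes had -0.19 and the unrestricted brain genes 0.049. Without the soybean oil brain before the meal the median of the restricted genes was 0.021. With a brain minimum of 100 TPM, which left 29 genes, it was 0.019. It was -0.0063 without the fish oil brain after the meal, -0.35 without the fish oil brain before it and -0.42 without the soybean oil brain after it. The medians with a library left out come from fits without a term for feeding state. They therefore include part of the meal fold and are not diet folds alone.

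By its medians, the diet fold differed with level after the meal and not before it. The 20 restricted genes with a brain mean of at least 200 TPM had a median diet fold of -0.24 before the meal and 0.34 after it. The 55 genes under 200 TPM had -0.22 before the meal and -0.27 after it. Before the meal, 4 of the 20 genes (20%) and 3 of the 55 (5.45%) were at least 2-fold lower with soybean oil. Among all tested genes 23.1% were. Lower with soybean oil in both feeding states were 26 of these 55, or 47.3%, and 5 of the 20 higher genes, or 25%. The share was 32.2% of all tested genes. The unrestricted brain genes were not split by level.

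No restricted gene passed the test for diet. In limma on the 4 brain libraries, with diet and feeding state as terms, 0 of the 75 genes and 0 of 61309 genes (0%) had an adjusted p under 0.05. An unadjusted p under 0.05 was reached by 0 of the 75 genes, against 4.85% of all tested genes. The lowest adjusted p over all tested genes was 0.95. The fit had 1 residual degree of freedom and a median SE of 0.37 on the log2 scale for the restricted genes, and 0 calls do not show that diet made no difference.

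Single genes differed with diet in one direction in both feeding states without passing the test. TRINITY_DN132752_c1_g1 stood at 88.7 TPM before and 91.6 TPM after the meal with soybean oil, and at 154 and 148 TPM with fish oil. The diets did not overlap, and the log2 fold was -0.74 ± 0.34 (SE, limma adjusted p = 1). TRINITY_DN118217_c1_g4 stood at 103.9 TPM before and 133 TPM after the meal with soybean oil, and at 201 and 185 TPM with fish oil (log2 fold -0.71 ± 0.36, SE; limma adjusted p = 1). Its diets did not overlap either.

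In the other direction, TRINITY_DN124615_c2_g2 stood at 278 TPM before and 309 TPM after the meal with soybean oil, and at 153 and 245 TPM with fish oil. Its diets did not overlap, and the log2 fold was 0.60 ± 0.37 (SE, limma adjusted p = 1). It was 0.26 without the fish oil brain before the meal and 0.93 without the fish oil brain after it. TRINITY_DN117818_c2_g1 stood at 157 TPM before and 340 TPM after the meal with soybean oil, and at 115 and 265 TPM with fish oil (log2 fold 0.40 ± 0.35, SE; limma adjusted p = 1). Here the diets overlapped, since both libraries after the meal were above both before it. Within a feeding state the diet log2 fold of this gene was 0.45 before the meal and 0.36 after it. It was -0.20 without the fish oil brain before the meal and -0.15 without the soybean oil brain after it. It was 0.96 without the soybean oil brain before the meal and 1.00 without the fish oil brain after it. Fits with a library left out, here and for TRINITY_DN124615_c2_g2, have no term for feeding state. They therefore mix part of the meal fold into the diet fold. All 4 genes were picked for one sign in both feeding states, so that agreement is no result.

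The second comparison was between fish caught after and before the meal. It asks whether the restricted genes differ 1 h after feeding. More of the restricted genes were higher than lower after the meal. In both diets 44 of the 75 genes, or 58.7%, were higher after the meal, against 33.7% of all tested genes and 31% of the unrestricted brain genes. In both diets 6 were lower, or 8%, against 17.1% of all tested genes and 21.9% of the unrestricted brain genes. Both libraries after the meal lay above both before it in 40 genes, or 53.3%, against 26.9% of all tested genes. They lay below both in 4 genes, or 5.33%, against 13.2% of all tested genes. At 1.5-fold or more in each diet, 8 of the 75 genes were higher, a share close to the 9.67% of all tested genes. None was lower, against 4.68% of all tested genes. In the soybean oil pair 64 genes, or 85.3%, were higher after the meal. The share was 66.9% of all tested genes and 43.4% of the unrestricted brain genes. Lower in this pair were 11 genes, or 14.7%, against 30.9% of all tested genes. In the fish oil pair 49 genes, or 65.3%, were higher. That was close to the 65.7% of the unrestricted brain genes and above the 48.5% of all tested genes. Lower in this pair were 26 genes, or 34.7%, against 50.6% of all tested genes.

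The median log2 fold after over before the meal was 0.50 with soybean oil and 0.38 with fish oil for the restricted genes. For the unrestricted brain genes it was -0.11 and 0.26, and for all tested genes 0.30 and -0.017. As the mean of both diets the restricted genes had a median of 0.44, between quartiles of 0.082 and 0.70 and a range of -0.81 to 1.42. All tested genes had 0.12 and the unrestricted brain genes 0.044. The median of the restricted genes was 0.38 after quantile normalization and 0.39 when each library was centred on the unrestricted brain genes. Without the soybean oil brain before the meal it was 0.26, that of the unrestricted brain genes 0.19 and that of all tested genes -0.069. That fit has no term for diet, so these values include part of the diet fold. As the mean of both diets, the median was 0.47 for the 20 genes from 200 TPM upwards and 0.44 for the 55 below. With soybean oil the medians of these 20 and 55 genes were 0.80 and 0.37, and with fish oil 0.35 and 0.38. No test of this split was made.

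**Figure D4:**
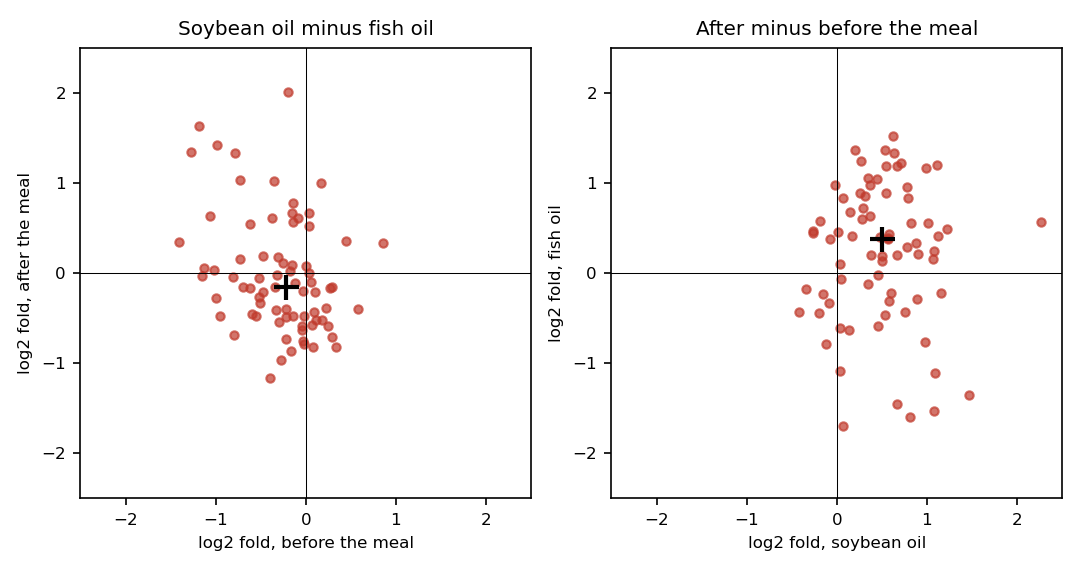
Log2 folds of the 75 restricted genes on log2(TPM + 1), each point a gene. Left, soybean oil minus fish oil before (x) and after (y) the meal; right, after minus before the meal with soybean oil (x) and fish oil (y); crosses mark the medians, at -0.22 and -0.15 on the left and 0.50 and 0.38 on the right.

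No restricted gene passed the test for feeding state either. In the same limma fit 0 of the 75 genes and 0 of 61309 genes (0%) had an adjusted p under 0.05. An unadjusted p under 0.05 was reached by 3 of the 75 genes, all higher after the meal, which is 4% against 6.88% of all tested genes. The lowest adjusted p was 0.704. The count of 3 depended on the fit, and so did whether the share was below that of all tested genes. The count was 9 after quantile normalization (4040 of 61309 tested genes) and 2 with a pseudocount of 0.1 (3847 of 61309). It was 1 without trended, robust variances (3868 of 61309) and 16 in the fit on all 12 libraries (7369 of 89972). The fit on all 12 libraries takes part of its spread from liver and spleen, where the rule holds these genes near 0. It thus understates the spread of the restricted genes, so the 16 is no support.

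Ranked by the smaller of its 2 folds, TRINITY_DN117818_c2_g1 came first. It went from 157 to 340 TPM with soybean oil and from 115 to 265 TPM with fish oil. Its log2 fold was 1.15 ± 0.35 (SE; limma adjusted p = 0.704). It was 1.10 to 1.18 in the alternatives with no library left out, and 0.93 to 1.38 with a library left out. Fits with a library left out have no term for diet. The gene was picked for its rise in both diets, so one direction in all alternatives is no result. It was listed at 0 in all liver and spleen libraries. TRINITY_DN136360_c0_g1 went from 63 to 126 TPM with soybean oil and from 64.2 to 145 TPM with fish oil (log2 fold 1.07 ± 0.34, SE; limma adjusted p = 0.704). For both genes the libraries before and after the meal did not overlap.

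Ranked in the same way, the genes that fell most in both diets had smaller folds than these. In the fish oil pair alone, the folds of the restricted genes ran from -1.69 to 1.52. TRINITY_DN109469_c0_g1 went from 163 to 121 TPM with soybean oil and from 178 to 131 TPM with fish oil, with no overlap (log2 fold -0.43 ± 0.34, SE; limma adjusted p = 0.871). TRINITY_DN139492_c1_g1 went from 93.9 to 82 TPM with soybean oil and from 135 to 99 TPM with fish oil (log2 fold -0.32 ± 0.34, SE; limma adjusted p = 0.911). In that gene the fish oil brain after the meal was above the soybean oil brain before it, so the feeding states overlapped. Its fold was -0.058 without the fish oil brain before the meal and -0.58 without the soybean oil brain before it. Those fits have no term for diet, so they mix part of the diet fold into the meal fold. Genes named here were picked for one sign in both diets, and the folds of these last genes were under 2 SE.

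Across the restricted genes, the folds of the 2 pairs of libraries were weakly inverse for diet and nearly unrelated for meal. The diet folds before and after the meal had a Pearson r of -0.31 (Spearman's rho -0.30) and the meal folds of the diets one of 0.0038 (rho 0.028), each across 75 genes. Among the unrestricted brain genes these were -0.18 and 0.25 (Pearson). For those above 1 and up to 10 TPM elsewhere they were -0.26 and 0.25. The 2 pairs of a comparison share no library, but each pair gives all genes the same scaling, and genes are not independent replicates. Between brain libraries, the levels of the restricted genes had a Spearman's rho across genes of 0.51 to 0.85. It was higher, at 0.80 to 0.93, for the unrestricted brain genes. It was 0.66 to 0.85 for brain genes above 1 and up to 10 TPM elsewhere, and 0.66 to 0.75 for all tested genes.

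A minority of restricted genes turned with the combination of diet and meal. At 1.5-fold or more in opposite directions in the 2 pairs, 6 genes, or 8%, turned for diet. The share was 12.6% of all tested genes and 3.35% of the unrestricted brain genes. For meal 6 genes turned, or 8%, against 13.4% of all tested genes and 4.09% of the unrestricted brain genes. Singled out after their values were seen, 7 genes, or 9.33%, were at least 2-fold lower after the meal in the fish oil pair. That share was smaller than the 17.7% of all tested genes and larger than the 5.02% of the unrestricted brain genes. All 7 were higher after the meal in the soybean oil pair, by log2 folds of 0.033 to 1.47. In that pair 85.3% of the restricted genes and 66.9% of all tested genes were higher. The median of the 7 was 147 TPM in the soybean oil and 211 TPM in the fish oil brain before the meal. After it their median was 313 TPM with soybean oil and 81.6 TPM with fish oil. The fall with fish oil is fixed by how the 7 were picked. The other 68 genes had median meal folds of 0.49 with soybean oil and 0.41 with fish oil.

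With 1 library in each combination, such a turn has no residual spread to be tested against. TRINITY_DN140081_c1_g3, one of the 7, stood at 202 TPM before and 321 TPM after the meal with soybean oil, and at 350.2 and 127 TPM with fish oil. TRINITY_DN134310_c2_g5, given above, was another.

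The share of genes that were higher after the meal differed with how widely a gene was expressed, and the restricted genes were close to their nearest neighbours. The 89 brain genes whose highest liver or spleen value was above 1 and up to 10 TPM had median meal folds of 0.45 with soybean oil and 0.37 with fish oil. In 52 of them both diets were higher after the meal, 58.4% against 58.7% of the restricted genes. The 186 genes above 10 and up to 50 TPM elsewhere had medians of 0.077 and 0.32, and 41.9% were higher in both diets. The 801 genes above 50 TPM elsewhere had medians of -0.25 and 0.23, and 25.5% were higher in both diets. The gradient lay mainly in the soybean oil pair.

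Diet before the meal ran the other way over the same 4 classes. The medians were -0.22 in the restricted genes, then -0.18, 0.036 and 0.32 as the level elsewhere rose. After the meal they were -0.15, -0.023, -0.18 and -0.090, with no order. The diet fold before the meal and the soybean oil meal fold share the soybean oil brain before the meal, so the 2 gradients are not independent of each other. This is a description of the libraries, and no test of the classes was made.

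**Figure D5:**
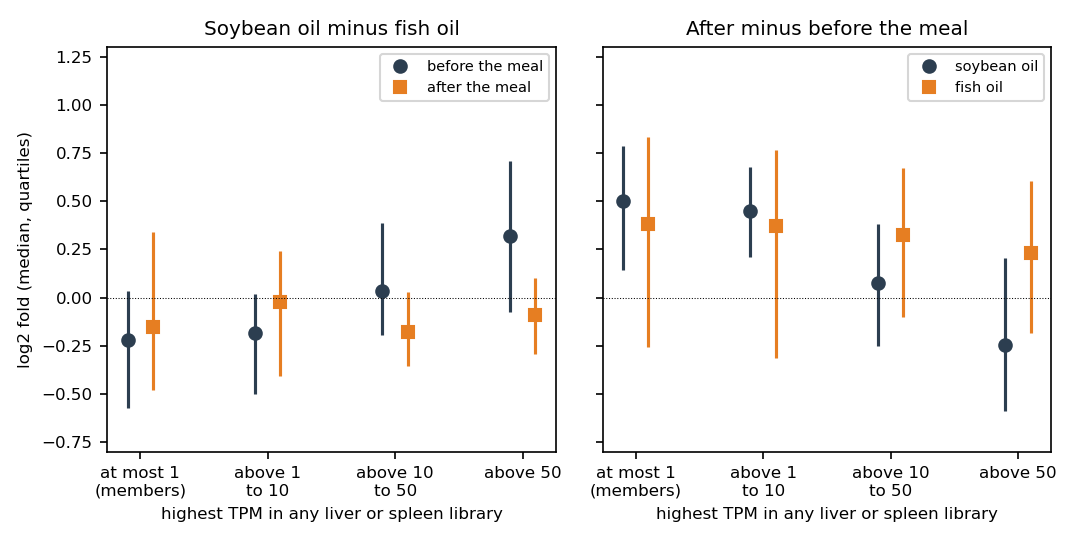
Median log2 fold (points) and quartiles (bars) of brain genes of at least 50 TPM in every brain library, by their highest TPM in any liver or spleen library, for diet (left) and meal (right). The meal folds with soybean oil fall from a median of 0.50 in the restricted genes to -0.25 in the 801 genes above 50 TPM elsewhere.

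In the assembly, the restricted genes were mostly separate from each other and often had near relatives. Trinity groups contigs that share sequence into components, and a component can hold several gene IDs that divide the reads of related transcripts. Sturgeons are polyploid, so related copies of a gene are common in them. The 75 genes lay in 70 components. Alone in their component were 20 genes, and 5 components held 2 restricted genes each. A total of 49 genes shared their component with at least 1 of 121 other IDs that were not restricted.

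Of those other IDs, 60 of 121 were under 1 TPM in the brain mean and at most at 1 TPM in every liver and spleen library. Another 22 were at most at 1 TPM outside brain with a brain mean of at least 1 TPM. All 82 of these failed by the brain minimum alone. In 45 of the 49 genes the restricted ID was the highest of its component in brain. In 24 of the 49 genes another ID of the component exceeded 1 TPM in a liver or spleen library, and in 5 it exceeded 10 TPM, up to 152 TPM. For these genes the restriction to brain holds for the ID and not for the whole component.

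The component with the highest pair was that of TRINITY_DN140081_c1_g1 and TRINITY_DN140081_c1_g3. The first stood at 479 TPM before and 825 TPM after the meal with soybean oil, and at 467 and 572 TPM with fish oil, higher after the meal in both diets. The second, given above, was higher after the meal with soybean oil (log2 fold 0.67) and lower with fish oil (log2 fold -1.46). Reads of related transcripts could be divided between such IDs in a way that differs between libraries, so differences between them are uncertain. Whether this happened was not tested.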

How the data were processed

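Brain, liver and spleen were profiled by RNA sequencing in 12 libraries. Per the labels' protocols, TruSeq libraries were read as 125-bp pairs and cleaned reads were assembled with Trinity; the same protocols describe liver dissection for all samples. The deposited values are TPM per assembled gene with 2 decimals, and how the authors quantified them is not given in the sources used here. Depth cannot be recovered from TPM, so counting error is unknown, and a gene's TPM falls when others take more of the total.

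Groups came from the labels. Their descriptions read longterm feed for the libraries called before the meal here, and postprandial feed for those after it. Values were transformed to log2(TPM + 1). Diet and feeding state were then fitted by limma 3.58.1 (R 4.3.3) with trended, robust variances. The 61309 genes that reached 1 TPM in 2 or more brain libraries entered, and p-values were adjusted over all of them by Benjamini-Hochberg. All 75 restricted genes passed this filter. The 4 brain libraries were fitted alone, because restricted genes are near 0 elsewhere and a fit with liver and spleen would understate their spread. The fit was run on simulated data as a check of the code. Whether folds of the size reported here could be called was not judged from it. Python 3.11.15, pandas 2.3.3 and numpy 2.4.6 gave summaries.

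The genes and lists were chosen with earlier results of these data known. Genes named by ID are the 2 highest, steadiest and most variable, the 2 that rose and fell most in both pairs of each comparison, those at the limits of the rule, and 1 component pair. Alternatives covered scaling, pseudocount, filter, variance model, the libraries fitted and the limits of the rule; rescaling without the highest genes was added after the data were seen.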

Additional observations from a re-analysis of the deposited data

Results flagged for a closer look

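Of 24 groups of 4 library values examined (named genes in brain, and summed restricted genes in each tissue), 1 had a library far from the other 3 by Dixon's ratio, which flags about 1 in 20 groups by chance. Over all 75 restricted genes in brain, 6 (8%) had such a library, against 6.3% of all tested genes. TRINITY_DN117051_c4_g1 stood at 50.5 TPM in the fish oil brain after the meal against 77.3 to 81 TPM in the other 3, and that value lies just above the limit by which the gene was chosen.

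Other values had opposite signs in the 2 pairs of libraries of a comparison, and none of these differences was tested, since each pair is 1 library against 1. The share of brain TPM held by the restricted genes, soybean oil minus fish oil, was -0.351 percentage points before the meal and 0.025 percentage points after it. For the restricted genes from 200 TPM upwards the median diet fold was -0.24 before the meal and 0.34 after it. TRINITY_DN106883_c0_g1 had a diet log2 fold of -1.06 before the meal and 0.64 after it. TRINITY_DN134310_c2_g5 had a meal log2 fold of 1.09 with soybean oil and -1.11 with fish oil. TRINITY_DN140081_c1_g3 had a diet log2 fold of -0.79 before the meal and 1.33 after it, and a meal log2 fold of 0.67 with soybean oil and -1.46 with fish oil. For single named restricted genes a turn is given where both folds were at least 1.5-fold.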

How the results depend on the processing

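No restricted gene was called for diet or feeding state under any alternative run. For feeding state, 8 restricted genes had an unadjusted limma p under 0.05 when centred on the unrestricted brain genes (3311 of 61309 tested genes). They numbered 10 with diet counted as spread (5458 of 61309) and 12 without a filter (5889 of 204379). With a filter at a mean of 5 TPM they numbered 7 (1829 of 21514). Rescaled without the highest genes they numbered 2 (4356 of 65388). Their share was above that of all tested genes in each of these fits except the rescaled one, and below it in the main fit. Without a filter, genes under 1 TPM count among those tested. Genes are not independent replicates, and no test of these shares was made. Over all genes, 124 were called for diet and 184 for feeding state when low values were not filtered, against 0 in the other alternatives; the cause was not tested. The number of restricted genes was 235 with a brain minimum of 20 TPM, 29 with 100 TPM, 128 with a brain mean of 50 TPM, 49 with a liver and spleen maximum of 0.5 TPM and 142 with 5 TPM. In the same order their share of brain TPM was 2.33%, 1.13%, 1.93%, 0.784% and 2.84%, as fewer or more genes were summed. The median diet fold was -0.28, 0.019 and -0.26 for the first 3 of these limits, and the median meal fold was 0.32 with the minimum of 20 TPM. With 1 library left out of the fit or of the rule, the median diet fold ranged from -0.42 to 0.021 and the median meal fold from 0.26 to 0.52. The fits with a library left out count the other factor as spread and have no term for it. Part of the meal fold therefore enters their diet fold, and part of the diet fold their meal fold. Where a group is left with 1 library, that library is assumed to vary like the other group. TRINITY_DN117818_c2_g1 had a diet log2 fold from -0.20 to 1.00 when a library was left out. It was reversed without the fish oil brain before or the soybean oil brain after the meal. Within a feeding state it was 0.45 before the meal and 0.36 after it, so its meal fold enters the reversed values. Of 163 summary values, 141 kept their direction and moved by less than their spread or, for counts, by no more than 1.5 times. Many of these were counts of called genes, at 0 in the main fit, so the tally is no measure of robustness. The median diet fold moved by more in 3 alternatives with a library left out and was reversed in 1. With none left out it moved by more in 2 and was reversed in 1. Of 104 values of single genes, 102 kept their direction and their side of the threshold. These genes were picked for one sign in both pairs, so this tally is no support. No paired analysis was possible because the labels give no replicate numbers and each combination has 1 library; the fit with diet and feeding state as terms already compares libraries matched on the other factor. Sequencing depth is unknown, so a limit of detection cannot be given.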
